A study of Rattus norvegicus with 172 samples.

Results

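Htr2c, Htr2a, Trhr and Adra2a encode 4 receptors through which fibres descending from the brainstem act on neurons of the spinal cord. They were taken from the array by gene symbol, which gave 4 genes of 14218 and 11 probe sets of 31099. Each gene was read from whichever of its probe sets was brightest on average in cord. The rule that picked them worked by name, but the 4 genes were chosen with earlier results of these data known. The study removed 5 mm of spinal cord at thoracic level T7-8 from female Wistar rats aged 2 months and followed 3 arms. In the NT-3 tube arm a chitosan tube carrying neurotrophin-3 on chitosan was placed in the gap, in the tube alone arm the tube was empty, and in the lesion control arm nothing was implanted. Segments 5 mm long were taken rostral to the gap, at the lesion and caudal to it on days 1, 3, 10, 20, 30, 60 and 90. All injured groups carried the same transection, and normal cord came from level T7-8 of rats described only as normal. The comparison of rostral with caudal cord sets the segment that keeps its supraspinal input beside the segment that has lost it.

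Serotonin reaches the cord almost wholly from the raphe nuclei of the brainstem. The receptors encoded by Htr2c and Htr2a couple to Gq proteins and raise the excitability of motoneurons and interneurons. Some raphe fibres that release serotonin also release thyrotropin-releasing hormone, whose Gq-coupled receptor is the product of Trhr. Noradrenaline comes from cell groups of the pons. Its receptor encoded by Adra2a couples to Gi proteins and damps transmitter release and neuronal firing. Cord cells that receive the input make these receptors, so their messenger can be read from the cord on either side of a transection.

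The promoters of Htr2c and Adra2a are shown as the regulatory sequence at hand for a serotonin and a noradrenaline receptor gene. The RefSeq table of rat promoters (GRCr8) matched these 2 of the 4 genes. The 250 bases before each annotated gene start follow, 5′ to 3′ on the plus strand.
Htr2c, chrX:115452940-115453189: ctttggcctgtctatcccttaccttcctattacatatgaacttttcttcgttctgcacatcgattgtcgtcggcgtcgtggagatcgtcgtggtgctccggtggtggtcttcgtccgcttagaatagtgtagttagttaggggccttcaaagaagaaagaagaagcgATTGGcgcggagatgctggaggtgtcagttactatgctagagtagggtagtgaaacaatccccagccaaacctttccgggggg
Adra2a, chr1:263066530-263066779: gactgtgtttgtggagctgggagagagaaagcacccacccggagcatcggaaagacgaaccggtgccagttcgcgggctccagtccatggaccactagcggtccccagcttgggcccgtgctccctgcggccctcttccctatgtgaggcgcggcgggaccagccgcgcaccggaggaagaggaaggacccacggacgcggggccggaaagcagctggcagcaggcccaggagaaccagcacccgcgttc
Capitals mark the single CCAAT match in Htr2c, read on the minus strand. Both strands were searched for the GC box (GGGCGG), the TATA box (TATAAA), the CCAAT box and the cyclic AMP response half-site (TGACG), and the Adra2a stretch held none of them. Of 33469 promoters of this length, 30.5% held a GC box, 12.9% a TATA box, 34% a CCAAT box and 18.2% the half-site. G and C made up 50.4% of the Htr2c stretch and 67.6% of the Adra2a stretch, where the median promoter had 51.2%. A match is a description of the letters only.

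The table held 172 arrays, of which 164 were injured cord in 55 groups, 3 were normal cord and 5 were a universal reference RNA that entered no test. Of the injured arrays 62 were rostral, 63 caudal and 39 from the lesion. Groups had 3 arrays, except tube alone rostral on day 10 with 2, and precision is bounded by these few arrays per group. RNA of 4 animals was pooled for each injured cord array, and the labels give no pool size for normal cord. The p-values measure the spread between arrays, which in injured groups are pools. Values are log2 intensities, on which 1 unit is a 2-fold change. The cord's defining markers were present: the mean over 18 neuronal genes was 11.60 to 11.65 in normal cord, 10.12 to 11.32 rostrally, 10.35 to 11.34 caudally and 6.86 to 10.11 in the lesion. Astrocyte genes (7) averaged 11.09 to 11.15, 10.25 to 11.17, 10.31 to 11.24 and 8.60 to 10.30 in the same order. In bulk tissue, fewer cells of a type and less RNA per cell cannot be told apart. Skeletal muscle RNA was high on 13 of the 125 rostral and caudal arrays, 6 of 20 rostral and 4 of 21 caudal tube alone arrays, 2 rostral and 1 caudal NT-3 tube arrays and 0 lesion control arrays (mean of its list more than 2 log2 units above the highest normal array). The normal cord lies between the other segments in position, so position and injury cannot be told apart in comparisons with it.

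In normal cord Htr2c read 11.87, 11.52 and 11.65 on the log2 scale, Trhr 9.42, 9.47 and 9.43, and Adra2a 7.81, 8.48 and 7.93. The 3 normal arrays agreed closely for Trhr, and for Adra2a replicate 2 stood above the other two. Htr2a read 5.74, 5.52 and 5.71, below 6.55, the 40th percentile of all values, which is taken here as the level under which a probe set is dim. Levels of different genes come from different probes and are not set against each other. In rostral cord Htr2c lay between 9.71 and 11.22 (median 10.51) and in caudal cord between 9.57 and 11.34 (median 10.75). Trhr lay between 7.22 and 8.89 rostrally (median 8.04) and between 7.29 and 8.81 caudally (median 8.35). Every rostral and caudal array was below every normal array for both genes. Over all 11590 genes tested, 7.03% showed that pattern in both segments, 10.5% in rostral and 7.87% in caudal cord. Adra2a overlapped with normal cord, at 6.92 to 8.30 rostrally (median 7.86) and 7.19 to 8.36 caudally (median 7.92). It was below all normal arrays on 26 of 62 rostral and 21 of 63 caudal arrays and above them on 0.

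**Figure D1:**
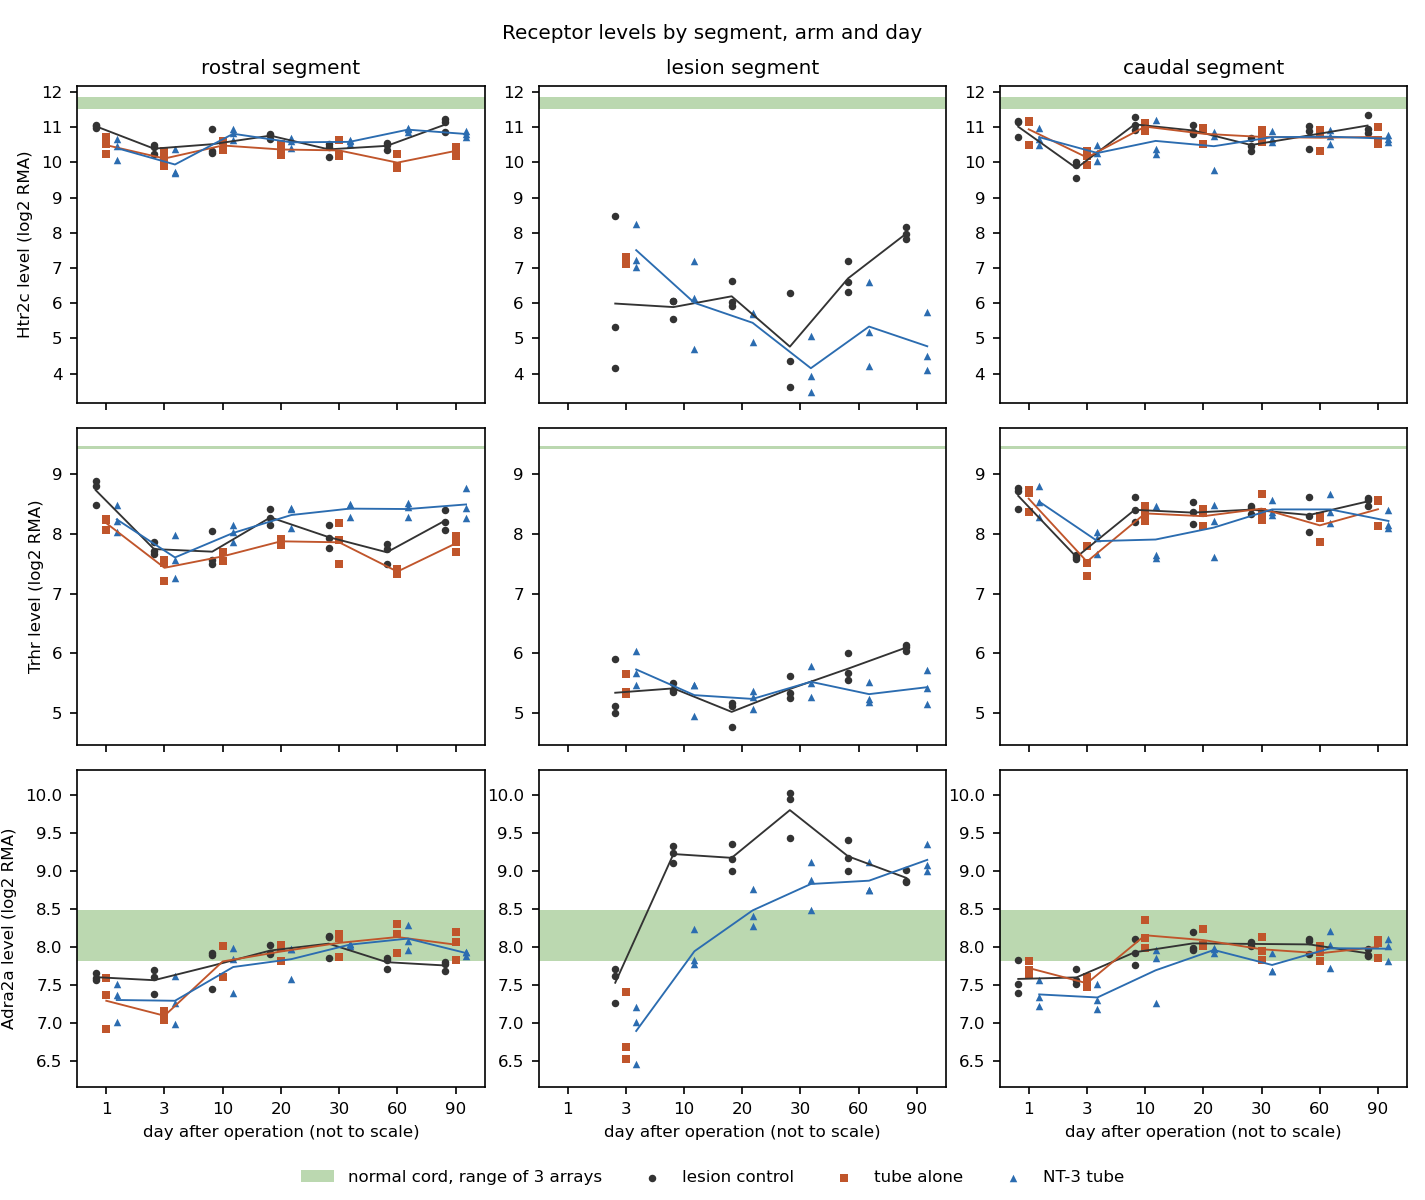
Log2 intensity of Htr2c, Trhr and Adra2a on every injured cord array (points) against day after transection, by segment and arm, with lines through the group means and the range of the 3 normal cord arrays as a green band. Htr2c and Trhr lay below the band on every injured array, and Adra2a lay above it in the lesion from day 10 of the lesion control, with 25 of 39 lesion arrays above all normal arrays.

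Htr2a was below 6.55 on all 167 cord arrays, with 5.17 to 5.83 rostrally, 5.32 to 5.78 caudally and 4.96 to 5.80 in the lesion. It therefore passed no filter on low values, and 3 of the 4 receptor genes were tested. Its other 3 probe sets were dimmer, with means of 5.22, 4.35 and 3.15. Fitted without the filter, Htr2a differed between rostral and caudal cord by -0.08 to 0.01 in the 3 arms and in their mean, and 0 of these 4 comparisons passed limma's adjusted threshold or an unadjusted p of 0.05. Against normal cord 2 of 18 comparisons passed, rostral tube alone over days 10 to 30 (-0.20, adjusted p = 0.0496) and rostral NT-3 tube over days 1 to 3 (-0.24, adjusted p = 0.0249). Probe sets of the other genes did not all follow each other. The second Htr2c probe set was dim and nearly flat, at 6.05 in normal, 6.04 in rostral, 6.03 in caudal and 5.81 in lesion cord. The other Trhr probe sets had means of 4.23 and 3.41. The second Adra2a probe set averaged 6.03, 5.97, 5.94 and 6.37 in the same order as for Htr2c, also highest in the lesion. The values of Htr2c, Trhr and Adra2a therefore each rest on 1 probe set.

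Trhr, the receptor for thyrotropin-releasing hormone, was lower rostral than caudal to the lesion in both arms without neurotrophin. In rostral cord of the lesion control it read 7.57, 7.49 and 8.05 on day 10, 7.75, 7.83 and 7.50 on day 60 and 8.20, 8.07 and 8.40 on day 90. The caudal arrays of the same days read 8.61, 8.20 and 8.40, then 8.62, 8.03 and 8.30, then 8.60, 8.56 and 8.47. Rostral and caudal arrays did not overlap on any of these 3 days, the caudal ones being the higher. On day 1 they did overlap, with 8.89, 8.81 and 8.49 rostrally against 8.72, 8.77 and 8.42 caudally. On day 3 they parted the other way, with 7.71, 7.66 and 7.87 rostrally against 7.65, 7.58 and 7.61 caudally. How many of all genes part in this way on single days was not counted, here or below. Averaged over the 7 days, rostral minus caudal was -0.28 ± 0.07 (SE, adjusted p = 0.00223, limma with Benjamini-Hochberg adjustment over all genes) in the lesion control. In this comparison 7.48% of genes differed and 4.32% were lower rostrally. Without day 10 the difference was -0.21 (adjusted p = 0.089), and without replicate 1 of every injured group it was -0.22 (adjusted p = 0.179). The call was lost both times. Leaving out a replicate number also lowers power, and the count of all genes called fell from 867 to as few as 179. Over periods the difference was 0.11 on days 1 to 3 (adjusted p = 0.96), -0.41 ± 0.10 on days 10 to 30 (adjusted p = 0.00271) and -0.47 ± 0.12 on days 60 to 90 (adjusted p = 0.0159). The shares of genes called in these periods were 0.0173%, 8.84% and 3.35%. Both later calls were lost without replicate 1 (-0.33, adjusted p = 0.158, and -0.39, adjusted p = 0.229), and that of days 60 to 90 also without replicate 3 (-0.49, adjusted p = 0.092).

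The tube alone arm had the same direction. Rostral tube alone arrays read 7.70 and 7.55 on day 10, 7.41, 7.33 and 7.37 on day 60 and 7.86, 7.70 and 7.96 on day 90. Caudal arrays read 8.35, 8.22 and 8.46, then 8.30, 8.27 and 7.86, then 8.55, 8.56 and 8.13. Groups again did not overlap on these days. The mean difference over 7 days was -0.51 ± 0.07 (adjusted p = 2.44e-09), in a comparison in which 33.7% of genes differed and 20.3% were lower rostrally. In the NT-3 tube arm the groups overlapped, for example on day 60 with 8.45, 8.29 and 8.51 rostrally and 8.37, 8.67 and 8.19 caudally. There the mean difference was 0.01 ± 0.07 (95% interval -0.12 to 0.14, adjusted p = 0.99), and 0.509% of all genes differed.

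Htr2c, the Gq-coupled serotonin receptor gene that was bright on these arrays, was called lower rostrally in the tube alone arm and in neither other arm. On day 60 of that arm it read 10.25, 9.90 and 9.83 rostrally against 10.87, 10.91 and 10.32 caudally, and on day 90 it read 10.43, 10.17 and 10.38 with no caudal array below 10.52. All rostral arrays of these days lay below all caudal ones. The mean difference was -0.42 ± 0.08 (adjusted p = 4.67e-06). In the lesion control it was -0.08 ± 0.07 (95% interval -0.22 to 0.07, adjusted p = 0.643), and in the NT-3 tube arm -0.02 ± 0.07 (95% interval -0.16 to 0.13, adjusted p = 0.973). Values of the lesion control on day 60 show the overlap, with 10.49, 10.56 and 10.36 rostrally and 11.03, 10.37 and 10.90 caudally. The direction also turned with the day in that arm, at 0.28 on days 1 to 3 (adjusted p = 0.954) and -0.28 on days 10 to 30 (adjusted p = 0.114). In the tube alone arm the difference was -0.24 (adjusted p = 0.21), -0.46 (adjusted p = 0.00294) and -0.55 (adjusted p = 0.00193) over the 3 periods, in which 14.3%, 18.1% and 17.3% of genes were called. The last of these was -0.53 (adjusted p = 0.0742) without replicate 1.

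Adra2a, the Gi-coupled noradrenaline receptor gene, was called between the segments in the tube alone arm and in neither other arm. Rostral minus caudal was -0.10 ± 0.06 in the lesion control (adjusted p = 0.351), -0.15 ± 0.06 with the tube alone (adjusted p = 0.0375) and 0.02 ± 0.06 with the NT-3 tube (adjusted p = 0.959). With the tube alone, on day 1 the arrays read 7.37, 7.59 and 6.92 rostrally against 7.70, 7.82 and 7.65 caudally, and on day 3 they read 7.04, 7.16 and 7.09 against 7.47, 7.60 and 7.50. Over days 1 to 3 the difference was -0.43 (adjusted p = 0.0057), and it was -0.36 (adjusted p = 0.352) without replicate 3. On day 10 the group means were 7.81 rostrally and 8.15 caudally (-0.34, adjusted p = 0.186). The 7-day value was not called without day 1 (-0.10), 3 (-0.10), 10 (-0.11) or 20 (-0.15), without replicate 1 (-0.11, adjusted p = 0.356) or 3 (-0.12, adjusted p = 0.186), or without muscle-rich arrays (-0.16, adjusted p = 0.112).

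Single days were tested for each arm, 21 in all. Trhr was on the lower side rostrally on 14 of them and passed the test on 5, days 10 and 60 of the lesion control (-0.70 and -0.62) and days 10, 60 and 90 of the tube alone (-0.72, -0.77 and -0.57). The shares of all genes called on these days were 2.63%, 2.11%, 9.03%, 10.8% and 5.34%. Htr2c was on the lower side on 14 days and passed on 1, day 60 of the tube alone (-0.71, adjusted p = 0.00972). Adra2a was on the lower side on 13 days and passed on 1, day 1 of the tube alone (-0.43, adjusted p = 0.043), where 12.4% of genes were called. None of the 3 genes was called higher rostrally on a single day. Trhr and Htr2c were on the lower side on 7 of 7 days with the tube alone, as were 10.6% of all genes. All 5 single-day calls of Trhr were lost without replicate 1, as was that of Htr2c (-0.75, adjusted p = 0.113, and without replicate 2 -0.55, adjusted p = 0.0781), and that of Adra2a was lost without replicate 1 (-0.48, adjusted p = 0.13) or 3 (-0.28, adjusted p = 0.916). On simulated arrays of this design, 100% of genes given a 0.5 log2 difference were recovered in the 7-day mean of the lesion control, and 65.7% on day 10 alone. For a 0.25 log2 difference the shares were 86.6% and 8.96%.

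**Figure D2:**
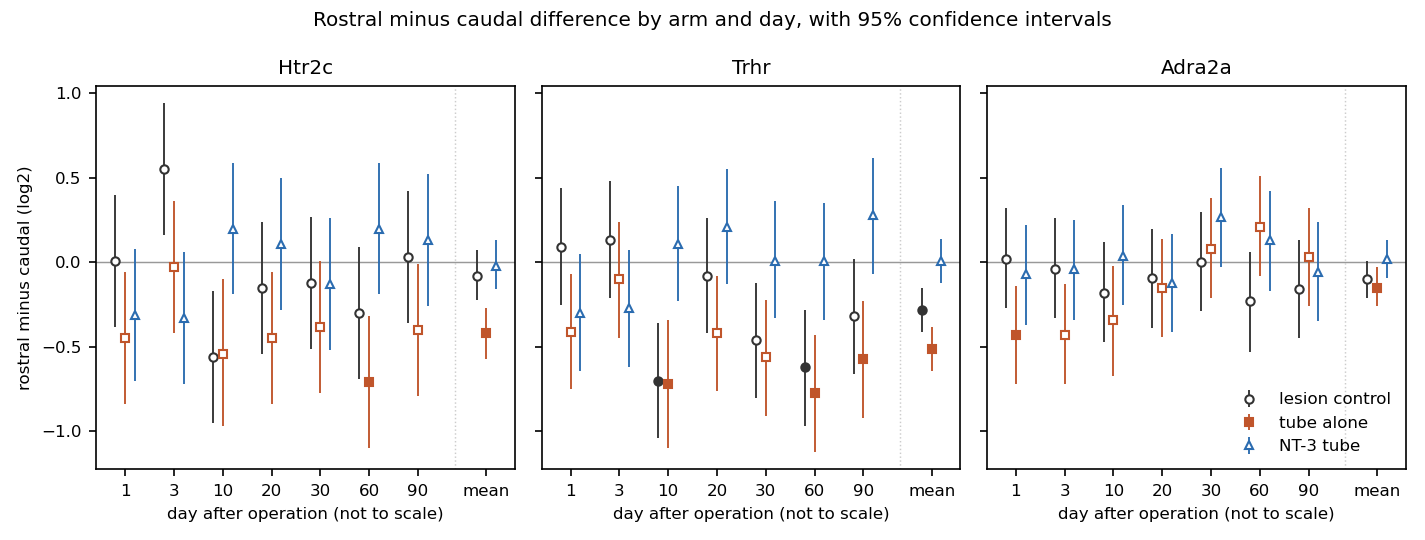
Rostral minus caudal difference in log2 intensity for Htr2c, Trhr and Adra2a on each day and averaged over 7 days, by arm, with 95% intervals and filled symbols where limma's adjusted p was under 0.05. Trhr was below 0 on all days of the tube alone (mean -0.51) and its mean was -0.28 in the lesion control and 0.01 with the NT-3 tube.

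The arms were compared directly in the size of this rostral to caudal difference. The NT-3 tube and tube alone arms differed by 0.52 ± 0.09 for Trhr (adjusted p = 0.00027) and by 0.40 ± 0.11 for Htr2c (adjusted p = 0.00662), the difference being nearer 0 with the NT-3 tube. For Adra2a the value was 0.17 (95% interval 0.01 to 0.32, adjusted p = 0.162). In this comparison 13% of genes were called and 9.53% were on the same side as Trhr. Without replicate 1 the values were 0.44 for Trhr (adjusted p = 0.128) and 0.34 for Htr2c (adjusted p = 0.269), neither of them called. The NT-3 tube and lesion control arms differed by 0.29 ± 0.09 for Trhr (adjusted p = 0.299) and by 0.06 ± 0.10 for Htr2c (adjusted p = 0.886), and the tube alone and lesion control arms by -0.23 ± 0.09 (adjusted p = 0.21) and -0.34 ± 0.11 (adjusted p = 0.0889). The shares of genes called were 0.112% and 0.475%.

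The level of RT1-CE10, a class I histocompatibility gene, split the groups into high and low ones. In rostral and caudal cord the arms differed in it on some days, while on others (high on day 30, low on days 10 and 20) they did not. In rostral cord on day 60, for example, it averaged 10.42 with the tube alone, 7.23 with the NT-3 tube and 7.38 in the lesion control. Its part in the differences between arms was not tested, but they were also taken over only the days on which both arms had like levels of it in both segments, a choice made after the data were seen. For NT-3 tube against tube alone those were days 1, 10, 20 and 30, and the rostral to caudal difference then differed by 0.54 for Trhr (adjusted p = 0.00592) and by 0.42 for Htr2c (adjusted p = 0.0483), with 7.72% of genes called. For NT-3 tube against lesion control they were days 10, 20, 30 and 60, and Trhr then differed by 0.55 ± 0.12 (adjusted p = 0.00559) where 4.8% of genes were called. Without the arrays rich in muscle RNA the first comparison gave 0.50 for Trhr (adjusted p = 0.00512) and 0.40 for Htr2c (adjusted p = 0.062).

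Levels within each segment show on which side the arms parted. On day 60 rostral Trhr read 8.45, 8.29 and 8.51 with the NT-3 tube, 7.75, 7.83 and 7.50 in the lesion control and 7.41, 7.33 and 7.37 with the tube alone. The 3 groups did not overlap. NT-3 tube minus tube alone was 1.05 ± 0.17 on that day (adjusted p = 5.7e-06, with 22.2% of genes called) and 0.48 ± 0.07 over 7 days (adjusted p = 4.01e-08), where 23.9% of genes were called. NT-3 tube minus lesion control was 0.72 ± 0.17 on day 60 (adjusted p = 0.0361, with 0.311% of genes called) and 0.17 ± 0.07 over 7 days (adjusted p = 0.124), where 3.24% were called. Day 1 went the other way, with NT-3 tube minus lesion control at -0.49 for Trhr (adjusted p = 0.0231) and -0.62 for Htr2c (adjusted p = 0.0107), where 32% of genes were called. Trhr was also higher with the NT-3 tube than with the tube alone on days 30 (0.56, adjusted p = 0.0169) and 90 (0.65, adjusted p = 0.00823), where 19.5% and 8.14% of genes were called, and no other single day was called for it between these arms. Over days with like RT1-CE10 levels, NT-3 tube minus lesion control was 0.39 for Trhr (adjusted p = 0.0125), with 0.535% of genes called. Day 60 was among those days and day 1 was not, when RT1-CE10 averaged 10.79 and 6.71 in these arms. Rostral Htr2c on day 60 read 10.94, 10.87 and 10.98 with the NT-3 tube against 10.25, 9.90 and 9.83 with the tube alone, a difference of 0.94 (adjusted p = 0.000198). Over 7 days that difference was 0.28 (adjusted p = 0.00391), but it was 0.11 (adjusted p = 0.493) over days with like RT1-CE10 levels, which leave out day 60, and 0.31 (adjusted p = 0.0604) without replicate 1. Tube alone minus lesion control in rostral cord was -0.36 ± 0.08 for Htr2c (adjusted p = 0.000138) and -0.30 ± 0.07 for Trhr (adjusted p = 0.000203), with 31% of genes called.

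In caudal cord Htr2c and Trhr were called in 0 of 3 comparisons between arms over 7 days by limma, also at an unadjusted p under 0.05, where 11.9% of genes were called for NT-3 tube against lesion control, 10.4% for tube alone against lesion control and 5.87% for NT-3 tube against tube alone. Caudal medians of Htr2c were 10.85 in the lesion control, 10.87 with the tube alone and 10.67 with the NT-3 tube, and those of Trhr were 8.42, 8.35 and 8.28. Rostral medians were 10.56, 10.28 and 10.65 for Htr2c and 8.05, 7.75 and 8.29 for Trhr, lowest with the tube alone for both. Adra2a was lower caudally with the NT-3 tube than with the tube alone (-0.18, adjusted p = 0.036), a call lost without any of the 3 replicate numbers (-0.23 to -0.15).

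Against normal cord, Htr2c and Trhr were lower in 21 of 21 combinations of arm and day in each segment. Differences ran from -1.74 to -0.61 rostrally and from -1.84 to -0.60 caudally for Htr2c, and from -2.07 to -0.71 and -1.90 to -0.80 for Trhr. Pooled over the same 21 combinations, 30.4% of all gene tests were lower rostrally and 28.6% caudally, and all of them share the 3 normal arrays. In the lesion control, 30.3%, 32.6% and 32.6% of genes were lower rostrally over days 1 to 3, 10 to 30 and 60 to 90, and 30.7%, 29.6% and 29.2% caudally. Caudal Trhr was lower by -1.31 on days 1 to 3, -1.05 on days 10 to 30 and -1.01 on days 60 to 90 (adjusted p = 1.44e-08 for the last), and rostral Trhr by -1.20 ± 0.15, -1.46 ± 0.14 and -1.48 ± 0.15. Caudal Htr2c was lower by -1.25, -0.85 and -0.77 (adjusted p = 6.96e-05 for the last), and rostral Htr2c by -0.97 ± 0.17, -1.13 ± 0.16 and -0.91 ± 0.17. The caudal differences were thus smaller late than early for both genes, and late minus early was 0.48 for Htr2c (adjusted p = 0.00242) and 0.30 for Trhr (adjusted p = 0.0297), with 22.3% of genes called higher. Neither call held without replicate 1 (0.41, adjusted p = 0.0722, and 0.24, adjusted p = 0.255), nor that of Trhr without replicate 3 (0.27, adjusted p = 0.128). Rostral Trhr of the lesion control went the other way, late minus early being -0.28 (adjusted p = 0.0482), a call lost without any of the 3 replicate numbers (adjusted p 0.0581 to 0.235), where 29.8% of genes were lower. In rostral cord of the NT-3 tube arm late minus early was 0.70 for Htr2c (adjusted p = 1.03e-05, limma) and 0.53 for Trhr (adjusted p = 0.000114), where 26.1% of genes were called higher. A late rise was not general. Against normal cord, rostral tube alone went from -1.38 early to -1.52 late for Htr2c and from -1.63 to -1.83 for Trhr. Caudal NT-3 tube went from -1.19 to -0.98 and from -1.23 to -1.13. Caudal tube alone went from -1.14 to -0.97 and from -1.38 to -1.16.

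Trhr dropped between day 1 and day 3 in every arm and segment. In caudal cord of the lesion control it went from 8.72, 8.77 and 8.42 to 7.65, 7.58 and 7.61, a difference of -1.02, and in rostral cord from 8.89, 8.81 and 8.49 to 7.71, 7.66 and 7.87, a difference of -0.98. With the tube alone the differences were -1.05 caudally and -0.75 rostrally, and with the NT-3 tube -0.66 and -0.64. All 6 passed the test, that of rostral NT-3 tube not without replicate 1 (-0.50, adjusted p = 0.154). Htr2c fell with it in caudal cord of the lesion control, from 11.16, 11.17 and 10.71 to 9.57, 9.92 and 10.02, a difference of -1.18 (adjusted p = 4.58e-07). It also fell caudally with the tube alone (-0.80, adjusted p = 0.000527) and rostrally in the lesion control (-0.64, adjusted p = 0.00767; without replicate 1 -0.68, adjusted p = 0.0615). Of all genes, 14.5% rostrally and 21.6% caudally were lower on day 3 than on day 1 in the lesion control, 18.3% and 22% with the tube alone and 12.3% and 13.5% with the NT-3 tube. Adra2a passed in 0 of the 6 by limma, also at an unadjusted p under 0.05.

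Adra2a was low on the first days and close to normal later. Against normal cord it was lower in 7 of 21 combinations of arm and day in each segment, which were days 1 and 3 of every arm and day 10 of the NT-3 tube. That share of days is close to the 30.4% and 28.6% over all genes. In the lesion control the difference over days 1 to 3 was -0.49 rostrally (adjusted p = 0.00061) and -0.48 caudally (adjusted p = 0.000677). In rostral cord it was -0.88 with the tube alone (adjusted p = 3.57e-09) and -0.77 with the NT-3 tube, where 35.4% and 32.9% of genes were lower. Without normal replicate 2, which read 8.48, the lesion control values were -0.29 (adjusted p = 0.0817) and -0.28 (adjusted p = 0.0854) and that of caudal tube alone went from -0.45, where 33.7% of genes were lower, to -0.25 (adjusted p = 0.128). Rostral Adra2a over days 60 to 90 was -0.29 in the lesion control (adjusted p = 0.0411, and -0.09, adjusted p = 0.617, without normal replicate 2), 0.01 with the tube alone and -0.06 with the NT-3 tube. Late minus early was 0.88 for rostral tube alone (adjusted p = 6.72e-12), 0.72 for rostral NT-3 tube (adjusted p = 6.21e-09) and 0.62 for caudal NT-3 tube (adjusted p = 2.54e-07), where 24.4%, 26.1% and 23.4% of genes rose. These late minus early comparisons do not use the normal arrays. The remaining arms and segments moved less, here given against normal cord for days 1 to 3 and 60 to 90. Adra2a went from -0.49 to -0.29 in rostral and from -0.48 to -0.10 in caudal lesion control. In caudal tube alone it went from -0.45 to -0.11.

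The order of the 42 rostral and caudal groups was mostly fine-grained. Trhr was highest rostrally in the lesion control on day 1 (mean 8.73) and lowest with the tube alone on day 60 (7.37), and caudally highest in the lesion control on day 1 (8.64) and lowest with the tube alone on day 3 (7.54). Htr2c was highest rostrally in the lesion control on day 90 (11.07) and lowest with the NT-3 tube on day 3 (9.94), and caudally highest in the lesion control on day 10 (11.08) and lowest there on day 3 (9.84). Of the 20 gaps between neighbours in each such order, 1 was wider than the pooled SD within groups for each of these genes in each segment. Adra2a was highest with the tube alone on day 60 rostrally (8.13) and on day 10 caudally (8.15), with 2 and 0 gaps wider than the pooled SD.

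In the lesion segment the receptors parted. Htr2c lay between 3.47 and 8.48 (median 6.05), at or above 6.55 on 15 of 39 arrays, and Trhr between 4.77 and 6.15 (median 5.42), at or above it on 0 of 39. Adra2a lay between 6.46 and 10.02 (median 8.86), and on 25 of 39 arrays it was above all normal arrays. In the lesion control Adra2a read 7.26, 7.62 and 7.71 on day 3, 9.24, 9.10 and 9.32 on day 10, 9.43, 10.02 and 9.94 on day 30 and 9.01, 8.85 and 8.86 on day 90. Arrays of day 3 were the low ones and those from day 10 all exceeded the highest normal array. Against normal cord the difference was -0.54 on day 3 (adjusted p = 0.0227, with 34.8% of genes lower), 1.32 ± 0.18 over days 10 to 30 (adjusted p = 4.13e-08) and 0.98 ± 0.19 over days 60 to 90 (adjusted p = 2.44e-05). The day 3 call was lost without normal replicate 2 (-0.34, adjusted p = 0.181) and without replicate 1 (-0.41, adjusted p = 0.0912) or 2 (-0.59, adjusted p = 0.0613). Of the 11922 genes tested in the lesion, 41.7% were higher over days 10 to 30 and 35.6% over days 60 to 90.

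With the NT-3 tube Adra2a in the lesion was lower than in the lesion control on days 3 to 30. It read 7.21, 7.02 and 6.46 on day 3, 7.77, 8.23 and 7.83 on day 10, 8.28, 8.40 and 8.76 on day 20, 8.49, 8.88 and 9.11 on day 30 and 9.11, 8.75 and 8.75 on day 60. NT-3 tube minus lesion control was -0.63 on day 3 (adjusted p = 0.0376, with 18% of genes called), a call lost without replicate 2 (adjusted p = 0.26) or 3 (adjusted p = 0.477). It was -1.28 ± 0.21 on day 10 (adjusted p = 0.000185), when 5.26% of genes differed, and it was -0.69 on day 20 (adjusted p = 0.0128), -0.97 on day 30 (adjusted p = 0.00148), -0.32 on day 60 (adjusted p = 0.266) and 0.24 on day 90 (adjusted p = 0.413). On days 20 and 30 the shares of genes called were 33.8% and 18.3%. Of these calls day 10 held without each replicate in turn, that of day 20 was lost without replicate 2 (adjusted p = 0.117) or 3 (adjusted p = 0.0681) and that of day 30 without replicate 2 (adjusted p = 0.0758). Over 6 days the difference was -0.61 ± 0.09 (adjusted p = 1.49e-06), in a comparison in which 42% of genes differed. Skeletal muscle RNA was high on 17 of 18 lesion control and 6 of 18 NT-3 tube lesion arrays, and the 18 neuronal genes were lower by a mean of -0.90 with the NT-3 tube. RT1-CE10 in the lesion also differed between these arms. It averaged 9.05 with the NT-3 tube and 7.85 in the lesion control on day 3. On day 20 it averaged 9.90 and 7.32, and on day 90 11.45 and 7.59. The part of muscle RNA, neuronal genes and RT1-CE10 in the difference was not tested. Over the days with like RT1-CE10 levels, Adra2a differed by -0.86 ± 0.12 (adjusted p = 3.1e-06, limma), with 30.2% of genes called.

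Htr2c and Trhr were far below normal in the lesion in every arm. Htr2c was lower by -5.69 ± 0.73 on day 3, -6.06 over days 10 to 30 and -4.34 over days 60 to 90 in the lesion control, and by -4.17, -6.48 and -6.62 with the NT-3 tube. Trhr was lower by -4.10, -4.16 and -3.52 and by -3.71, -4.08 and -4.06. In these comparisons 34.8%, 36.2% and 36.6% of genes were lower in the lesion control and 33.6%, 37.2% and 35.1% with the NT-3 tube. Below 6.55 such values are compressed towards the background. Trhr did not reach 6.55 in any lesion group (highest mean 6.10) and passed the filter on low values only through normal cord. That it was lower in the lesion was thus set by the filter, and its differences are given as sizes only. On day 90 Htr2c read 7.81, 8.17 and 7.96 in the lesion control against 4.09, 4.49 and 5.75 with the NT-3 tube, a difference of -3.20 ± 0.73 (adjusted p = 0.00158), and 28.8% of genes differed on that day. RT1-CE10 differed between these arms on day 90 too. Over the days with like levels of it, which leave out day 90, Htr2c differed by -0.62 (adjusted p = 0.273, limma). Day 3 of the lesion control was uneven, with 8.48, 5.33 and 4.16. The neuronal genes were lower than in normal cord by a mean of -3.89 on day 3, -2.95 over days 10 to 30 and -1.98 over days 60 to 90 of the lesion control.

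Neuronal genes also moved with the receptors in rostral and caudal cord. Rostral minus caudal, the mean of the 18 neuronal genes differed by -0.11 in the lesion control, -0.30 with the tube alone and -0.06 with the NT-3 tube. Of the 17 tested, 3 were lower rostrally in the lesion control (Nefh -0.43, Nefm -0.29 and Nefl -0.27, the neurofilament subunits), 15 with the tube alone and 0 with the NT-3 tube by limma, where 4 had an unadjusted p under 0.05. Of 7 tested motor neuron genes, 5 were lower rostrally in the lesion control, among them Chodl (-0.74) and Chat (-0.64), which makes acetylcholine, and 1 was higher, Calca (1.16). Over the 42 injured group means the neuronal mean had a correlation of 0.87 with Htr2c, 0.90 with Trhr and 0.08 with Adra2a, across groups that share arms, days and normalization. Adra2a had 0.84 with the mean of the astrocyte genes.

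**Figure D3:**
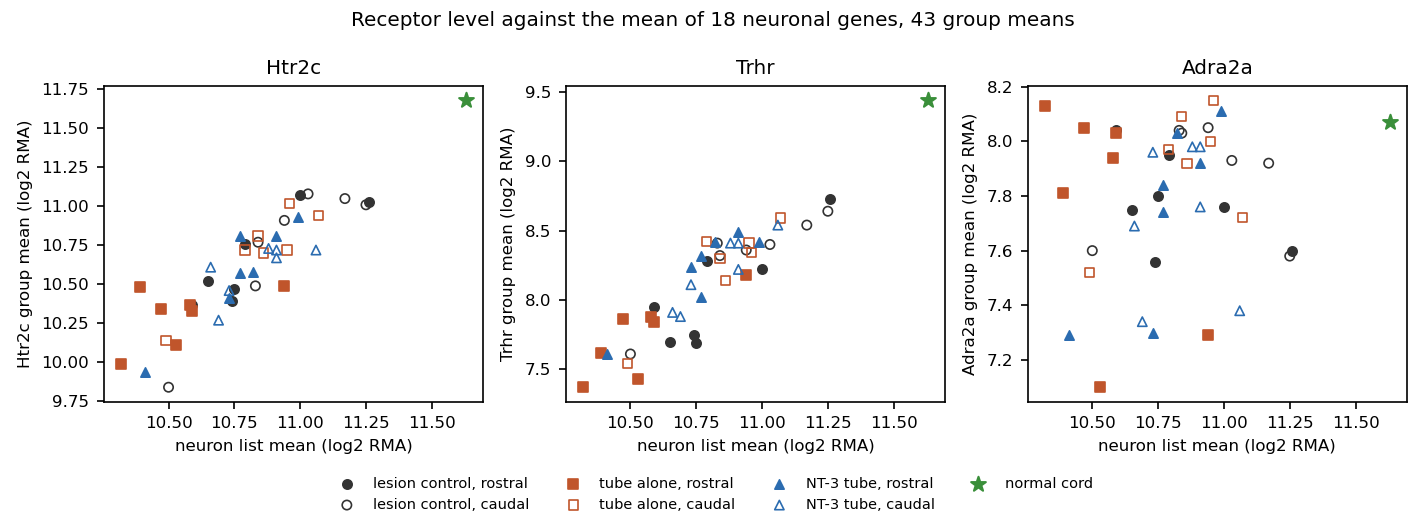
Mean log2 intensity of each rostral and caudal group for Htr2c, Trhr and Adra2a against the mean of 18 neuronal genes in the same group, by segment and arm, with normal cord marked. Htr2c and Trhr follow the neuronal mean over the 42 injured groups (r 0.87 and 0.90) and Adra2a does not (r 0.08).

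With the neuronal mean of each array subtracted, limma called Trhr lower rostrally in the lesion control (-0.17 ± 0.05, adjusted p = 0.0267) and with the tube alone (-0.20, adjusted p = 0.000311). On this scale 0.673% and 0.863% of all genes were lower. These shares are small by construction, since the subtraction moves every gene upward by the neuronal difference. The part of neuronal content in the receptor differences was not tested. Htr2c was at 0.03 (adjusted p = 0.613) and -0.12 (adjusted p = 0.0465). Against normal cord on this scale, Trhr of the lesion control over days 60 to 90 was at -0.73 rostrally (adjusted p = 7.42e-08, limma) and -0.39 caudally (adjusted p = 0.00242). Htr2c was not called from day 10 on in the lesion control (-0.18 to -0.15). The subtraction shifts every gene by the neuronal difference, so it gives no direction for Adra2a, which lay near its normal level. The difference between the NT-3 tube and tube alone arms in rostral minus caudal was 0.27 for Trhr (adjusted p = 0.00259) and 0.16 for Htr2c (adjusted p = 0.0711). Without the muscle-rich arrays, the tube alone differences were -0.47 for Trhr (adjusted p = 1.58e-05) and -0.39 for Htr2c (adjusted p = 0.00131).

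The other receptors of descending systems were read in caudal cord of the lesion control over days 60 to 90, where 29.2% of all genes were lower and 24.2% higher than in normal cord and the median gene was at -0.04. Of 14 serotonin receptor genes 8 were dim on every array and 4 were tested. Htr2b passed the filter only through injured groups and was dim in normal cord (4.76), so its mean of 6.96 is given as a level, although the fit called it higher. Htr2c and the Gs-coupled Htr7 were lower (-0.77 and -0.60), and Htr3b was not called, with a list median of -0.31. Of 5 tested adrenoceptor genes 3 were lower, Adra1d (-0.59), Adra1b (-0.50) and Adra2c (-0.43), with a median of -0.43. Drd2, a Gi-coupled dopamine receptor and the only one of 5 dopamine receptor genes tested, was lower (-0.91, adjusted p = 2.65e-11). Of 15 tested peptide receptor genes 9 were lower and 0 higher, with a median of -0.36. They were led by Hcrtr2 (-1.50), which binds orexin from the hypothalamus, Trhr (-1.01) and Tacr1 (-0.64), the substance P receptor. Hcrtr2, counted among the 9, averaged 7.57 in normal cord and 6.07 here, also below 6.55. Its difference too is given as a size only. Of 6 tested genes of amine and peptide synthesis and breakdown 2 were higher, Maob (0.92, adjusted p = 2.88e-13) and Maoa (0.42, adjusted p = 0.0271), the oxidases that degrade amines, and 0 were lower. Of 20 tested genes of Gq and Gi signalling 8 were lower and 3 higher. Among them were Kcnj6, a potassium channel opened by Gi-coupled receptors (-0.91), and Gnai2, which encodes a G protein subunit (0.85). Gnaq, another subunit gene counted among the 3 higher, was dim in normal cord (6.37) and passed the filter only through injured groups. Its mean of 7.08 is given as a level.

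Between rostral and caudal cord these lists held few differences in the lesion control. There Htr2b, near the dim level in both segments (6.74 and 6.28), was called higher rostrally (0.45 ± 0.14, adjusted p = 0.0284), Adra1d was lower (-0.36, adjusted p = 6.81e-05) and Trhr was the 1 peptide receptor gene called of 15, beside 7.48% of all genes. With the tube alone 2 of 4 serotonin receptor genes, 3 of 5 adrenoceptor genes and 5 of 15 peptide receptor genes were lower rostrally, and 3 peptide receptor genes were higher, where 33.7% of all genes were called and 20.3% were lower. With the NT-3 tube limma called 0 of 4, 0 of 5 and 0 of 15, and 0 of them had an unadjusted p under 0.05. Position differs between the segments too. Of 6 tested Hox genes, which mark level along the body axis, 4 were lower rostrally in the lesion control, with Hoxd9 at -1.43 and Hoxa10 at -1.34, so level of the cord and the side of the lesion cannot be told apart.

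**Figure D4:**
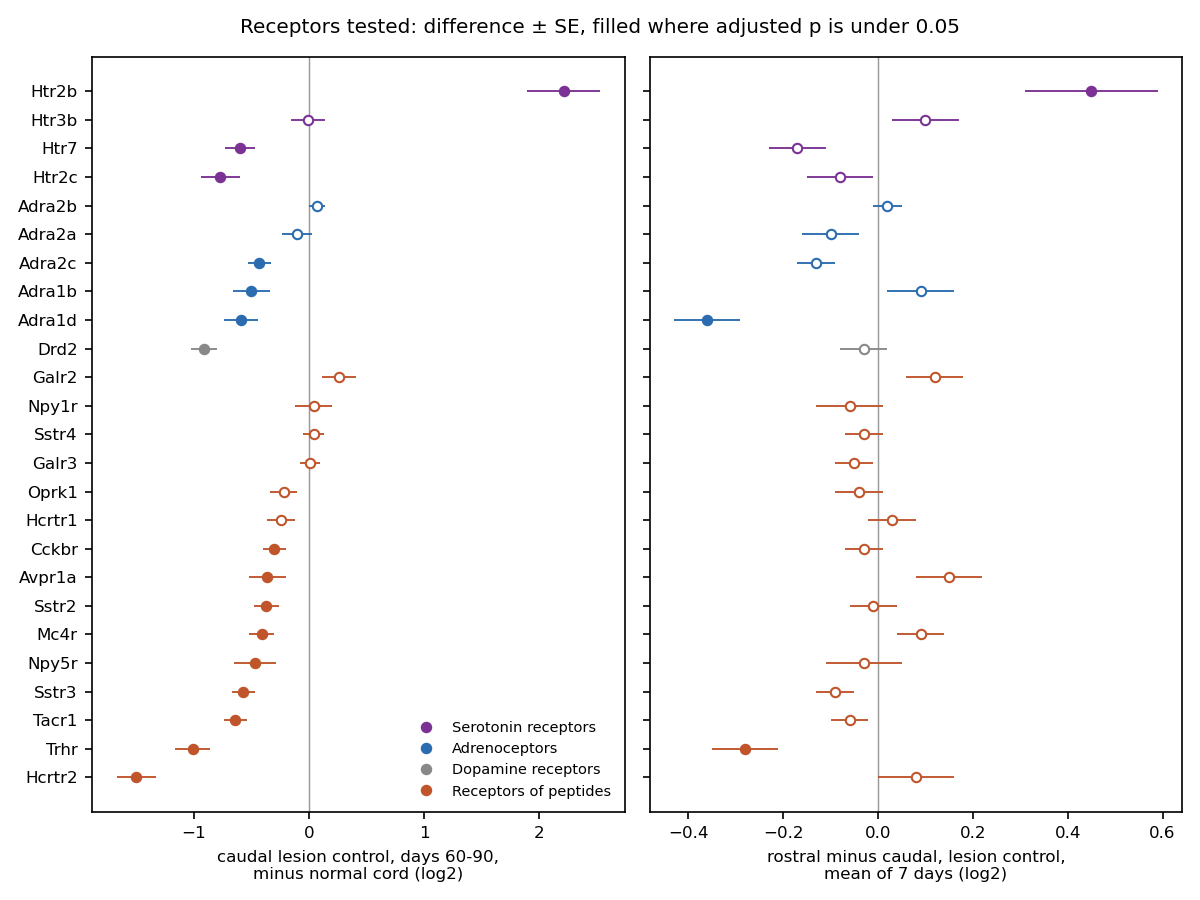
Log2 difference of each tested receptor gene of the serotonin, adrenoceptor, dopamine and peptide lists, for caudal lesion control on days 60 and 90 against normal cord and for rostral minus caudal of the lesion control over 7 days, with bars of 1 SE and filled symbols where limma's adjusted p was under 0.05. Most peptide receptor genes lie below 0 against normal cord (9 of 15 called lower, among them Hcrtr2, which was dim in that caudal group). Few genes were called between rostral and caudal cord.

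Genes whose group means ran most like each receptor over the 43 rostral, caudal and normal groups were named by Pearson correlation. For Trhr they were Patj (0.96), Camkk1 (0.95) and Asah2 (0.94), and Patj was also lower rostrally in the lesion control (-0.24, adjusted p = 0.0108). For Htr2c they were Dnajc6 (0.96), Fstl5 (0.95) and Glrb (0.95), and for Adra2a Nrbp2 (0.90), Ntrk2 (0.90) and Ldb3 (0.89). Among the receptors themselves the correlation was 0.87 for Htr2c with Trhr, 0.38 for Htr2c with Adra2a and 0.30 for Trhr with Adra2a. All groups share one normalization, and these values are descriptions.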

How the data were processed

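The deposited table holds log2 RMA intensities of 31099 probe sets on Affymetrix whole-genome rat arrays, made by the authors with Affymetrix Expression Console, per the submitters' processing notes, with versions not given in the sources used here. RMA equalises arrays and compresses low signals. Array medians were 7.10 to 7.25. Probe sets with 1 symbol (20832; 436 had several and 9831 were not listed) gave 14218 genes, each read from its brightest probe set. Genes with a group mean of at least 6.55, the 40th percentile, were tested with limma 3.58.1 in R 4.3.3 on 128 rostral, caudal and normal arrays (11590 genes) and on lesion and normal arrays (11922 genes), with 1 mean per group and Benjamini-Hochberg adjustment within each comparison. Early, middle and late periods are days 1 to 3, 10 to 30 and 60 to 90, and late minus early sets the last against the first. The tests were checked on simulated arrays. Their noise was independent between genes and few genes were changed, unlike the real arrays, so recovery there can differ. The median SD over the reference RNA arrays was 0.137.

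The 4 genes and 20 gene lists (194 entries, 180 on the array) were chosen with earlier results of these data known. Other genes named are the up to 3 of each list with the largest called differences in rostral minus caudal lesion control and in caudal lesion control of days 60 to 90 against normal cord, and the 3 most alike to each receptor. Leaving out muscle-rich arrays, and matching days on RT1-CE10 in both segments, were added after the data were seen. Comparisons between arms share arrays. Alternatives tried were other probe set summaries, filters, normalizations, weights, blocks, fits of fewer groups, subtraction of the neuronal mean and leaving out days or replicates.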

Additional observations from a re-analysis of the deposited data

Results flagged for a closer look

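The difference between rostral and caudal cord was itself different between the NT-3 tube and tube alone arms for Trhr (0.52 ± 0.09, adjusted p = 0.00027) and Htr2c (0.40 ± 0.11, adjusted p = 0.00662), by limma's test of that difference. Both values are taken over 7 days, and neither was called without replicate 1 (0.44, adjusted p = 0.128, and 0.34, adjusted p = 0.269). Of the 13 arrays rich in muscle RNA, 6 were rostral and 4 caudal arrays of the tube alone arm. Without those arrays the values were 0.50 (adjusted p = 0.00512) and 0.40 (adjusted p = 0.062).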

How the results depend on the processing

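Of the main comparisons recomputed under the alternatives, 581 of 589 for Trhr and 608 of 633 for Htr2c kept their direction and their side of limma's threshold. For Adra2a 562 of 633 did, with 19 reversed. Of the recomputed single days and periods, 1145 of 1186 for Trhr, 1247 of 1292 for Htr2c and 1229 of 1292 for Adra2a did, with 1 reversed for Adra2a. An eBayes trend with a robust prior kept 440 of 441. The replicate number as a block on pairs of rostral and caudal arrays moved Adra2a over 3 arms to -0.08 (adjusted p = 0.0415) and changed no other call of 111, and a random block (correlation 0.04) changed 0 of 234. The labels do not say whether same-numbered rostral and caudal arrays come from the same animals. Of 62 such pairs 32 had a correlation of deviations over 0.1. The median was 0.12, against -0.05 with arrays of other numbers. Among the 3 caudal arrays of its group, 31 rostral arrays correlated best with their own number. Normal cord has 3 arrays, so differences from it rest on few, and values near 6.55 or below are compressed. In simulations of caudal lesion control on days 60 to 90 against normal cord, 25.4% of genes changed by 0.25 log2 were recovered and 73.1% of those changed by 0.5.

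With array weights Adra2a was -0.16 in caudal NT-3 tube minus lesion control, -0.13 in caudal NT-3 tube of days 10 to 30 against normal cord, -0.15 in rostral lesion control of days 60 to 90, 0.19 in rostral tube alone of days 60 to 90, 0.18 in rostral lesion control of day 30 (from -0.03), -0.32 in the lesion control lesion of day 3, 0.50 in the NT-3 tube lesion of days 10 to 30, -0.11 in tube alone rostral minus caudal and -1.0 in tube alone minus lesion control in the lesion on day 3. Htr2c was then 2.05 in that last comparison and -0.63 in NT-3 tube minus lesion control in the lesion. Trhr was 0.15 in rostral NT-3 tube minus lesion control. Of the differences between arms in rostral minus caudal, Trhr was called for NT-3 tube minus lesion control (0.27) and Htr2c and Trhr for tube alone minus lesion control (-0.33 and -0.23). The cause was not tested.

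With the mean of all probe sets, Adra2a was -0.10 in caudal NT-3 tube minus tube alone, -0.15 in caudal NT-3 tube of days 10 to 30, -0.12 in rostral lesion control of days 60 to 90, -0.06 in tube alone rostral minus caudal and 0.34 in the NT-3 tube lesion of days 10 to 30. Htr2c was 0.16 in rostral NT-3 tube minus tube alone, 0.21 in the same arms' rostral minus caudal and -0.08 in rostral minus caudal over 3 arms. The mean draws in the dim probe sets.

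With the neuronal mean subtracted, Adra2a turned from below to above normal cord over days 1 to 3, 10 to 30 and 60 to 90, to 0.27, 0.63 and 0.52 in caudal lesion control, 0.40, 0.76 and 0.61 in caudal tube alone, 0.04, 0.60 and 0.64 in caudal NT-3 tube, 0.14, 0.80 and 0.46 in rostral lesion control, 0.01, 1.01 and 1.18 in rostral tube alone (the last from 0.01) and 0.28, 0.64 and 0.62 in rostral NT-3 tube. Rostral minus caudal turned to 0.09 over 3 arms and 0.16 with the tube alone. Htr2c was not called over days 10 to 30 and 60 to 90 at -0.16 and -0.15 in caudal lesion control, -0.06 and -0.25 in caudal tube alone, -0.22 and -0.24 in caudal NT-3 tube, -0.18 and -0.15 in rostral lesion control and -0.18 and -0.13 in rostral NT-3 tube, nor at -0.13 in rostral tube alone of days 10 to 30 and -0.01 in rostral minus caudal over 3 arms. Subtraction shifts every gene by the neuronal difference, and the counts of genes called went up, from 3907 to 10593 in tube alone rostral minus caudal, 3291 to 10495 over 3 arms, 6720 to 10267 and 6198 to 9381 in caudal lesion control of days 10 to 30 and 60 to 90, 6905 to 10360 and 6602 to 9950 in caudal tube alone, and 6418 to 9939 in rostral NT-3 tube of days 60 to 90.

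Other alternatives moved Adra2a across the threshold. In caudal NT-3 tube of days 10 to 30 it was not called at -0.27 with no dim filter, with only the groups compared or without muscle-rich arrays. In rostral lesion control of days 60 to 90 it was not called at -0.30 with only the groups compared or at -0.29 with the segments fitted apart. A second quantile normalization called -0.28 in rostral NT-3 tube and -0.25 in rostral lesion control of days 10 to 30. Caudal NT-3 tube minus tube alone was not called at -0.18 with only the groups compared, and was -0.21 without muscle-rich arrays. Tube alone rostral minus caudal was not called without day 1 (-0.10), 3 (-0.10), 10 (-0.11) or 20 (-0.15) or without muscle-rich arrays (-0.16), and the 3-arm value was called without day 30 (-0.11) or 60 (-0.09). With only the groups compared, Htr2c was called at -0.34 in rostral minus caudal, tube alone minus lesion control. Trhr of the lesion control was not called without day 10 (-0.21). The Htr2c difference between NT-3 tube and tube alone was not called at 0.40 without muscle-rich arrays. Over days matched on RT1-CE10, Trhr was 0.39 in rostral NT-3 tube minus lesion control and 0.55 in their rostral minus caudal (matched in both segments), and Htr2c 0.11 in rostral NT-3 tube minus tube alone.

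Counts of genes called in rostral minus caudal were 867 in the lesion control, 3907 with the tube alone, 59 with the NT-3 tube and 3291 over 3 arms. With a 2-fold minimum they were 4, 19, 1 and 3. For the lesion control the count was 2518 with array weights, 1519 without day 3, 333 without day 10, 489 without day 30 and 522 without day 60. For the NT-3 tube it was 282 with array weights, 28 with only the groups compared, 119 without day 10, 18 without day 30 and 17 without day 60 or day 90. For the tube alone it was 2283 without muscle-rich arrays. Between arms, rostral NT-3 tube minus lesion control had 375, with 62 over matched days, 1650 with array weights, 248 with only the groups compared and 248 without muscle-rich arrays. The caudal count of these arms was 1384, with 439 over matched days and 3186 with array weights. NT-3 tube minus tube alone had 2767 rostrally, with 520 over matched days and 1116 without muscle-rich arrays, and 680 caudally, with 2030 over matched days, 1103 with array weights, 187 with only the groups compared and 138 without muscle-rich arrays. Tube alone minus lesion control had 3594 rostrally, with 1932 over matched days and 5687 with array weights, and 1209 caudally, with 2346 with array weights and 300 without muscle-rich arrays. In the lesion on day 3, NT-3 tube minus tube alone had 2797 and 4242 with array weights, and tube alone minus lesion control had 846, 3946 with array weights and, by limma on only the groups compared, 0 (2393 at an unadjusted p under 0.05).

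Leaving out 1 replicate number at a time, normal ones included, gave these ranges where a call changed. Trhr of the lesion control was -0.33 to -0.22 in rostral minus caudal. In rostral minus caudal, NT-3 tube minus tube alone was 0.34 to 0.44 for Htr2c and 0.44 to 0.56 for Trhr, and tube alone minus lesion control -0.40 to -0.28 for Htr2c. Htr2c was 0.22 to 0.31 in rostral NT-3 tube minus tube alone and 0.24 to 2.50 in the lesion on day 3, tube alone minus lesion control. Adra2a was -0.22 to -0.11 in tube alone rostral minus caudal, -0.18 to -0.12 in caudal NT-3 tube minus lesion control, -0.23 to -0.15 in caudal NT-3 tube minus tube alone and -0.83 to -0.52 in the lesion on day 3, tube alone minus lesion control. Against normal cord Adra2a was -0.61 to -0.28 in caudal and -0.62 to -0.29 in rostral lesion control and -0.58 to -0.25 in caudal tube alone of days 1 to 3, -0.40 to -0.06 in caudal and -0.34 to -0.00 in rostral NT-3 tube of days 10 to 30, -0.43 to -0.09 in rostral lesion control of days 60 to 90, 0.21 to 0.55 in the NT-3 tube lesion of days 10 to 30 and -0.67 to -0.34 in the lesion control lesion of day 3. Counts ran from 179 to 904 in rostral minus caudal of the lesion control, 2229 to 3946 with the tube alone, 6 to 105 with the NT-3 tube and 1749 to 3322 over 3 arms. Between arms they ran from 33 to 400 (rostral) and 341 to 1439 (caudal) for NT-3 tube minus lesion control, 712 to 2828 and 6 to 718 for NT-3 tube minus tube alone, and 1977 to 3630 and 192 to 1226 for tube alone minus lesion control. In the lesion on day 3 they ran from 902 to 2902 for NT-3 tube minus tube alone and from 38 to 1489 for tube alone minus lesion control.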

Other observations

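Htr2b, a Gq-coupled serotonin receptor known from vessels and connective tissue, was dim in normal cord (4.76) and passed the filter on low values only through injured groups, so its levels are given without a difference. Over days 60 to 90 it averaged 7.38 in rostral lesion control, 7.44 with the tube alone and 7.30 with the NT-3 tube. In the lesion segment of the lesion control it averaged 8.84 on day 3 and 7.69 over days 10 to 30. In the lesion segment of the lesion control over days 10 to 30, where 41.7% of all genes were higher and 36.2% lower than in normal cord, the marker lists differed as follows. All 7 microglia and macrophage genes were higher (median 3.45), as were 6 of 6 vascular smooth muscle genes (median 2.04), 6 of 6 skeletal muscle genes (median 4.54) and 5 of 5 sensory ganglion genes (median 1.58), while 17 of 17 neuronal genes (median -3.11) and 6 of 7 astrocyte genes (median -1.96) were lower. Adra2a was higher in the same arrays, and the part of any of these cells in it was not tested. Some listed genes were dim in normal cord. There the skeletal muscle list averaged 5.31 to 5.47, and Clec7a and Cd68 of the microglia and macrophage list averaged 6.41 and 6.53. Such genes passed the filter on low values only through lesion groups, so that they were higher was set by the filter.

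On the 5 arrays of universal reference RNA, which is not cord, Trhr read 8.39 to 8.74, Htr2c averaged 4.32 ± 0.18 (SD), Adra2a 6.80 ± 0.24 and Htr2a 5.77 ± 0.18. Trhr was thus bright in that RNA, at a level within the range of injured rostral cord.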
